A study of Homo sapiens with 6 samples.

Results

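The miR-106b-25 cluster is a group of 3 microRNA hairpins, MIR106B, MIR93 and MIR25, that lie in an intron of MCM7. Its members here were the 6 mature arms of these hairpins, matched by name among the rows of class mature. They were 6 of 1727 known miRNA names, and each had counts in all 6 libraries. The cluster was chosen by name, selected on earlier fold changes of these data in which miR-93-5p and miR-25-3p were lower in PRMT1 libraries and miR-106b-5p was not. The differences of the members between the groups are therefore a description and not independent evidence.

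Small RNA was sequenced from BEAS-2B, an immortalised human bronchial epithelial cell line. PRMT1 libraries (n = 3) came from cells given pcDNA-PRMT1 to over-express the protein arginine methyltransferase PRMT1, and control libraries (n = 3) from cells that received pcDNA3.1, the plasmid without the gene, each for 48 h. All libraries share the cell line and the plasmid treatment, and the labels name no other allele or agent. The labels do not say whether the replicates were separate cultures, so the p-values measure the spread between these libraries, which may be technical. The level of PRMT1 mRNA was not analysed here.

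MCM7 is a subunit of the helicase that opens DNA for replication, and its promoter is driven by E2F factors in growing cells. The miRNAs of its intron are cut from the same primary transcript by DROSHA and then by DICER, which leaves a duplex of a 5p and a 3p arm. Usually 1 arm, the guide, is kept by an Argonaute protein, and the other is degraded. MiR-106b-5p and miR-93-5p repress inhibitors of the cell cycle such as CDKN1A, and miR-25-3p represses the pro-apoptotic BCL2L11, as known from human cancer cells.

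In GENCODE release 29 the hairpins lie on the minus strand of chromosome 7, in build GRCh38. MIR106B is at chr7:100093993-100094074, MIR93 at chr7:100093768-100093847 and MIR25 at chr7:100093560-100093643. They fall in intron 13 of transcript MCM7-201, which spans 771 bases and holds all 3 hairpins within 515 bases. The gap is 145 bases between MIR106B and MIR93 and 124 bases between MIR93 and MIR25. The submitters' processing notes name GRCh37.p13, so these positions are annotation and were not used to read the files.

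**Figure D1:**
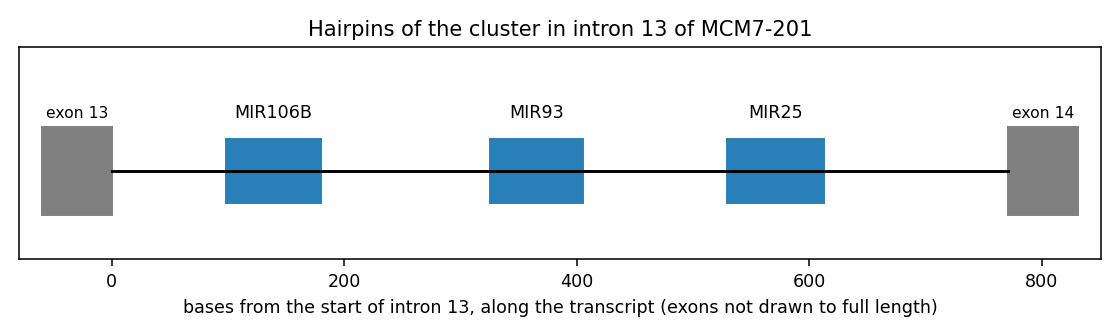
Map of intron 13 of MCM7-201 in the direction of transcription, with the position in bases from the start of the intron on the x axis and the 3 hairpins as boxes. MIR106B comes first and MIR25 last, with gaps of 145 and 124 bases between neighbours.

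The mature sequences, from RefSeq on GRCh38.p14, are shown because the seed decides which messages an arm can pair with. They run 5′ to 3′, and capitals mark the seed, bases 2 to 8.
hsa-miR-106b-5p: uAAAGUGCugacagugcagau
hsa-miR-93-5p: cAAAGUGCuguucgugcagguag
hsa-miR-25-3p: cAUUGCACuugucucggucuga
hsa-miR-106b-3p: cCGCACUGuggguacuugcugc
hsa-miR-93-3p: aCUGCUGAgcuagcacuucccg
hsa-miR-25-5p: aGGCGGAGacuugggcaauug
MiR-106b-5p and miR-93-5p share a seed with each other and with 6 further names in the RefSeq table, so 8 of its 2370 mature names carry it. That of miR-25-3p is carried by 6 names. The seeds of miR-106b-3p, miR-93-3p and miR-25-5p were each found in 1 name, their own.

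The hairpins of MIR106B and MIR25 show where the arms sit, with both mature arms in capitals and the 5p arm first.
MIR106B: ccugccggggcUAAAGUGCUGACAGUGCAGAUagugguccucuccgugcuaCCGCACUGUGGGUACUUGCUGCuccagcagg
MIR25: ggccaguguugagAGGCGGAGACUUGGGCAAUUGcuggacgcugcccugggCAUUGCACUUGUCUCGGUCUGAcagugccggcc
The more abundant arm was the 5p arm in MIR106B and MIR93 and the 3p arm in MIR25, in all 6 libraries.

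Total counts per library were 23.95 M to 25.79 M, of which known miRNAs took 11.54 M to 16.42 M. Levels below are CPM, counts scaled to the total of known miRNAs with TMM factors, a scaling that corrects for abundant names taking a larger share of some libraries. Control library 2 had the highest share of miR-21-5p, 66.04% of known miRNA counts. Its TMM factor was 0.761, against factors of 0.986 to 1.114 in the others. Counts differed more between control libraries than between PRMT1 libraries. The chi-square per degree of freedom of a pair was 2103 to 4702 within control and 548 to 973 within PRMT1 libraries. Against PRMT1 libraries it was 2129 to 2501 for control library 3 and 936 to 1388 for control libraries 1 and 2. Of 7 epithelial markers, miR-200a-3p (3184 to 4434 CPM), miR-200b-3p (1776 to 2982 CPM) and miR-429 (1684 to 2718 CPM) were abundant in all libraries. The other 4 were low, with miR-200c-3p at 40.4 to 61.6 CPM, miR-141-3p at 13.9 to 26.2 CPM and miR-203a-3p at 2.64 to 4.16 CPM. MiR-205-5p stood at 6.27 to 8.78 CPM in PRMT1 and 3.89 to 6.09 CPM in control libraries, without overlap (log2 0.72, SE 0.31, edgeR adjusted p = 0.741). MiR-429 stood at 1684 to 2381 CPM in PRMT1 and 2456 to 2718 CPM in control libraries, also without overlap (log2 -0.28, SE 0.20, edgeR adjusted p = 0.789). The part of these differences in the results below was not tested. The summed blood markers were at 7.48 to 20.2 CPM in PRMT1 and 4.26 to 8.88 CPM in control libraries, and those of muscle at 9.17 to 12.6 and 9.98 to 13.8 CPM. The liver marker miR-122-5p was at 1.48 CPM or less, and the endothelial marker miR-126-3p at 1581 to 2232 CPM in PRMT1 and 1651 to 2001 CPM in control libraries.

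Levels of the members ran from 9.12 CPM for miR-25-5p to 5349 CPM for miR-93-5p. MiR-93-5p held 73.9% to 80.3% of the counts of the cluster in a library, and miR-25-3p 17.4% to 22.7%. MiR-106b-5p, from the same transcript, held 1.08% to 4.39% of the counts. The 95% Wilson interval of such a share was at most 0.7 percentage points wide, which covers counting error only. MiR-106b-3p held 0.747% to 1.38%, miR-93-3p 0.312% to 0.71% and miR-25-5p 0.141% to 0.332%. By mean CPM over all names, miR-93-5p ranked 27 and miR-25-3p 60, while miR-106b-5p ranked 155 and miR-25-5p 315.

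MiR-93-5p, the most abundant member, was lower with PRMT1. It stood at 2977, 3791 and 3587 CPM in PRMT1 libraries 1 to 3, against 5349, 4941 and 4367 CPM in control libraries 1 to 3. Every PRMT1 library lay below every control library. The means were 3452 ± 423 CPM in PRMT1 and 4886 ± 493 CPM in control libraries (SD, n = 3 each). The fitted log2 fold change was -0.50 (SE 0.17, 95% interval -0.89 to -0.11), or 0.706-fold. The adjusted p of edgeR's quasi-likelihood test over all 668 tested names was 0.741.

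MiR-25-3p showed a difference of like size. It stood at 772, 924 and 888 CPM in PRMT1 libraries, against 1162, 1132 and 1339 CPM in control libraries. These groups did not overlap either. The means were 861 ± 79.3 CPM in PRMT1 and 1211 ± 112 CPM in control libraries (SD, n = 3 each), with a log2 fold change of -0.49 (SE 0.19, 95% interval -0.93 to -0.06, edgeR adjusted p = 0.741). The counts behind these values were 10618 or more for miR-25-3p and 42884 or more for miR-93-5p in every library.

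The gap between the groups depended on the scaling. For miR-93-5p and miR-25-3p the groups stayed apart under 4 of 5 scalings. They overlapped when CPM was taken of the known miRNA total without TMM, where control library 2 stood at 3760 CPM for miR-93-5p and 861 CPM for miR-25-3p. The log2 fold change stayed below 0 under every scaling tried for both.

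MiR-106b-5p, which has the seed of miR-93-5p, did not show that pattern. It stood at 177, 115 and 76.3 CPM in PRMT1 libraries, against 71.8, 99.7 and 111 CPM in control libraries. The groups overlapped, and PRMT1 library 1 was the highest. The means were 123 ± 50.6 CPM in PRMT1 and 94.06 ± 19.99 CPM in control libraries (SD, n = 3 each), with a log2 fold change of 0.38 (SE 0.34, 95% interval -0.38 to 1.14, edgeR adjusted p = 0.817). That value was -0.01 when PRMT1 library 1 was left out. It was 0.63 with PRMT1 library 3 left out and 0.21 with control library 1 left out.

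The fitted fold changes of the less abundant arms were near or above 0. MiR-106b-3p stood at 55.6, 49.8 and 56.9 CPM in PRMT1 libraries, against 49.8, 51.0 and 56.5 CPM in control libraries, and the groups overlapped almost fully. Its log2 fold change was 0.04 (SE 0.21, 95% interval -0.43 to 0.52), which turned to -0.08 when rows of all classes entered the fit. MiR-93-3p stood at 23.9, 35.0 and 19.6 CPM in PRMT1 libraries, against 20.8, 30.3 and 25.1 CPM in control libraries. It also overlapped, with a log2 fold change of 0.04 (SE 0.29, 95% interval -0.61 to 0.69), -0.02 with upper quartile scaling and -0.11 with rows of all classes. Both directions also turned when single libraries were left out.

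MiR-25-5p was the exception among the minor arms. It stood at 13.3, 15.9 and 10.4 CPM in PRMT1 libraries, against 9.39, 9.12 and 10.4 CPM in control libraries. PRMT1 libraries 1 and 2 were above all controls, while PRMT1 library 3 and control library 3 differed by less than their counting error, with 124 and 133 counts. The groups were apart by this narrow margin under 2 of 5 scalings. The log2 fold change was 0.46 (SE 0.28, 95% interval -0.16 to 1.08, edgeR adjusted p = 0.762), or 0.27 without PRMT1 library 2.

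**Figure D2:**
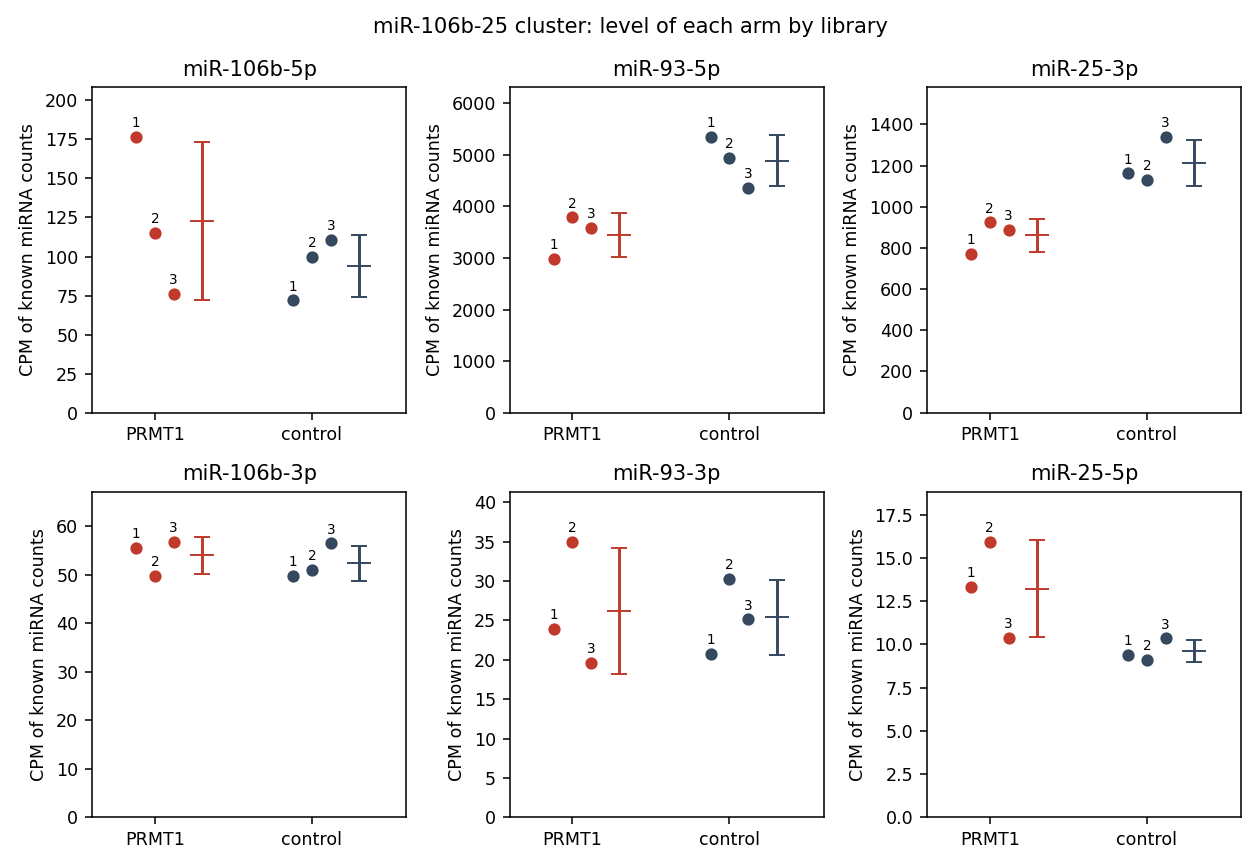
Level of each arm in CPM of known miRNA counts, with 1 point per library numbered by replicate, PRMT1 left and control right, and bars for mean ± SD (n = 3 each). The upper row holds the more abundant arms, where miR-93-5p and miR-25-3p were lower in all 3 PRMT1 libraries, at 2977 to 3791 CPM and 772 to 924 CPM.

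Of all 6 members, 0 passed an adjusted p of 0.05, and 0 of all 668 tested names passed, a background of 0%. At an unadjusted p under 0.05 there were 36 of the 668 names, a background of 5.39%, and 2 of the members were among them (miR-93-5p with an unadjusted edgeR p of 0.0174 and miR-25-3p with 0.031). On the same 668 names DESeq2 called 3 and limma-voom 0. DESeq2 on all 1727 names called 4, and none of these fits called a member. Under TMM scaling the groups did not overlap for 3 members, 2 lower and 1 higher in PRMT1 libraries. The background for this was 10.2% of tested names, 4.79% lower and 5.39% higher. The 1 higher member, miR-25-5p, was apart by less than counting error, at 10.37 CPM against 10.35 CPM, and under 2 of 5 scalings. Since the cluster was selected on this contrast, nothing is read from these counts. Over all tested names the median log2 fold change was 0.04 and the median SE 0.34, and 46.1% of names were below 0, as were 2 of the 6 members.

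**Figure D3:**
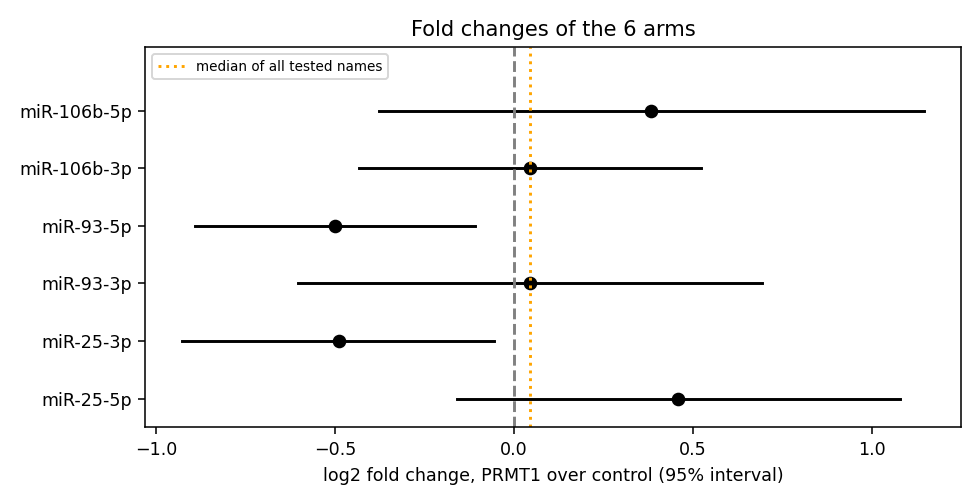
Log2 fold change, PRMT1 over control, for each arm on the x axis, with 95% intervals not adjusted for the number of names and a dotted line at the median of all tested names. The intervals of miR-93-5p (-0.89 to -0.11) and miR-25-3p (-0.93 to -0.06) lie below 0, and those of the other 4 arms span it.

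Whether the arms moved alike was asked with ratios of counts within a library, which need no scaling between libraries. The difference of 6 log2 ratios between the groups was tested with a two-sided exact permutation test. With 3 against 3 libraries this test cannot go below 0.1, so no ratio could reach 0.05, and Benjamini-Hochberg values were taken over the 6 ratios. The cluster was selected on fold changes of these same libraries, so these tests are a description and not independent evidence.

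For miR-93-5p and miR-25-3p, the abundant arms of neighbouring hairpins, the groups overlapped in ratio. There were 3.85, 4.10 and 4.04 counts of miR-93-5p per count of miR-25-3p in PRMT1 libraries, against 4.60, 4.37 and 3.26 in control libraries. The mean log2 ratio was 1.999 ± 0.047 in PRMT1 and 2.011 ± 0.268 in control libraries (SD, n = 3 each), a difference of -0.01 (exact permutation p = 1). The PRMT1 values lay inside the range of the control values, of which control library 3 was the lowest. With control library 3 left out, the difference was -0.165 and every PRMT1 ratio lay below the remaining control ratios (exact permutation p = 0.1, the smallest possible). It turned to 0.083 with control library 1 left out, 0.045 with control library 2 left out and 0.014 with PRMT1 library 1 left out.

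For MIR25, the ratio of the arms was lower with PRMT1. Its abundant arm, miR-25-3p, was selected as lower in these libraries, so the ratio is not independent of the selection. There were 57.9, 57.9 and 85.6 counts of miR-25-3p per count of miR-25-5p in PRMT1 libraries, against 124, 124 and 129 in control libraries. Every PRMT1 ratio was below every control ratio, and PRMT1 library 3 was the closest to them. The mean log2 ratio was 6.04 ± 0.33 in PRMT1 and 6.97 ± 0.04 in control libraries (SD, n = 3 each). The difference was -0.93 (exact permutation p = 0.1, the smallest possible), and 0.4 after Benjamini-Hochberg adjustment. It ran from -1.12 to -0.84 when each library was left out in turn.

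This comparison can be set beside other hairpins. Of 168 hairpins with both arms tested, the ratio of the arms did not overlap between the groups in 19, a background of 11.3%. MIR25 was among these 19, and its difference ranked 18 by size. The median size of the difference was 0.36 on the log2 scale over the 168 hairpins. MIR93 ranked 58 and MIR106B 104. MIR25, MIR93 and MIR106B belong to a cluster selected on fold changes of these same libraries, and the background hairpins were not so selected. Their ranks are therefore not independent of the selection. Nothing is read from them, or from the place of MIR25 among the 19.

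For MIR93 there were 124, 108 and 183 counts of miR-93-5p per count of miR-93-3p in PRMT1 libraries, against 258, 163 and 174 in control libraries. The groups overlapped through PRMT1 library 3. The difference in log2 ratio was -0.52 (exact permutation p = 0.3), and -0.32 without control library 1. For MIR106B there were 3.18, 2.31 and 1.34 counts of miR-106b-5p per count of miR-106b-3p in PRMT1 libraries, against 1.44, 1.96 and 1.96 in control libraries. These overlapped on both sides, with a difference of 0.28 (exact permutation p = 0.5). That difference was -0.01 with PRMT1 library 1 left out, 0.62 with PRMT1 library 3 left out and 0.13 with control library 1 left out.

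MiR-106b-5p stood higher against the other abundant arms in PRMT1 libraries, with wide spread. The cluster was selected because those arms were lower and miR-106b-5p was not, so these ratios restate the selection. Its difference in log2 ratio was 0.83 against miR-93-5p and 0.81 against miR-25-3p, each at p = 0.2 in the exact permutation test and 0.4 after Benjamini-Hochberg adjustment. There were 0.0593, 0.0303 and 0.0213 counts of miR-106b-5p per count of miR-93-5p in PRMT1 libraries, against 0.0134, 0.0202 and 0.0253 in control libraries. PRMT1 library 3 fell within the control range. Without PRMT1 library 1 the 2 differences were 0.42 and 0.43.

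**Figure D4:**
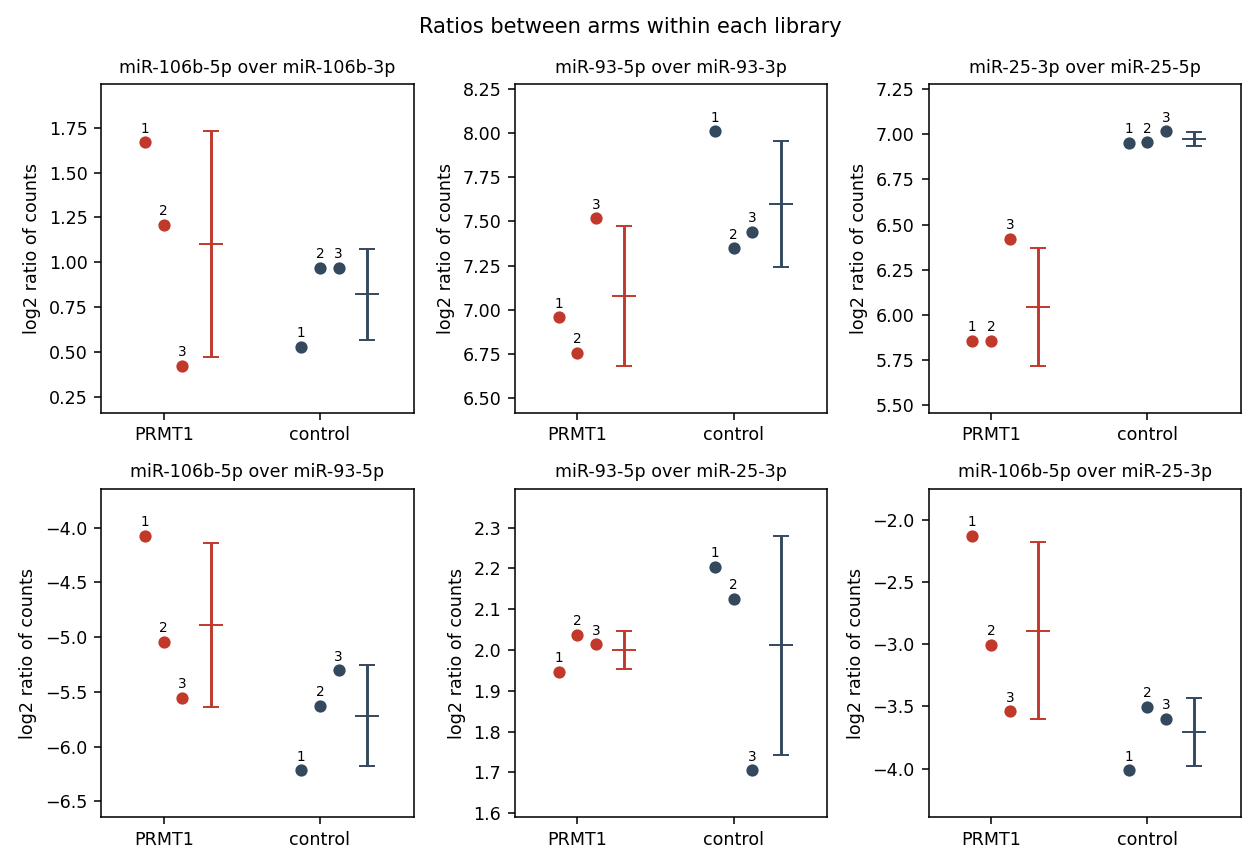
Log2 ratios of counts between arms within each library, PRMT1 left and control right, with bars for mean ± SD (n = 3 each). The ratio of miR-25-3p to miR-25-5p separates the groups (mean 6.04 against 6.97), while that of miR-93-5p to miR-25-3p does not (1.999 against 2.011). MiR-93-5p and miR-25-3p were selected as lower in PRMT1 libraries.

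The summed level of the 6 members followed miR-93-5p. It was 4019, 4931 and 4638 CPM in PRMT1 libraries, against 6663, 6263 and 5909 CPM in control libraries. The sum of the 3 less abundant arms was 92.85, 100.7 and 86.82 CPM in PRMT1 libraries, against 79.93, 90.42 and 91.95 CPM in control libraries, and these overlapped.

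The weight of the members among names of the same seed was then described. Of the 8 names with the seed of miR-93-5p, 7 had counts, among them miR-17-5p and miR-20a-5p of the miR-17-92 cluster. These 7 names summed to 5186, 6047 and 5290 CPM in PRMT1 libraries, against 7545, 7397 and 6214 CPM in control libraries. MiR-93-5p was the most abundant of them in every library. MiR-17-5p was at 815 ± 252 CPM in PRMT1 and 854 ± 135 CPM in control libraries, and miR-20a-5p at 1115 ± 31.2 and 1215 ± 265 CPM (SD, n = 3 each), with log2 fold changes of -0.07 (SE 0.27) and -0.12 (SE 0.22). MiR-20b-5p stood at 2.36 ± 0.472 CPM in PRMT1 and 1.86 ± 0.690 CPM in control libraries, and miR-106a-5p and miR-519d-3p were under 1 CPM in every library. MiR-18a-5p and miR-18b-5p of the wider family differ in 1 seed base, and the value of miR-18a-5p was -0.01 (log2, SE 0.25).

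Of the 6 names with the seed of miR-25-3p, 5 had counts. MiR-92a-3p, also of miR-17-92, led them with 7523, 11990 and 8498 CPM in PRMT1 libraries, against 12310, 8313 and 10720 CPM in control libraries. Its groups overlapped, and it set the sum of the 5 names, which was 10280 to 15530 CPM in PRMT1 and 11040 to 15530 CPM in control libraries. MiR-92b-3p did not differ in mean (log2 0.00, SE 0.28). MiR-32-5p, from another locus, stood at 404, 258 and 217 CPM in PRMT1 libraries, against 174, 236 and 228 CPM in control libraries (log2 0.46, SE 0.29). MiR-363-3p was at 5.99, 5.92 and 8.36 CPM in PRMT1 libraries, against 4.26, 5.44 and 4.51 CPM in control libraries. None of these passed the test. Under TMM scaling miR-25-3p, which was selected as lower, was the only 1 of the 5 lower in all PRMT1 libraries than in all control libraries. MiR-363-3p was higher in all PRMT1 libraries than in all control libraries. The background over tested names was 4.79% lower and 5.39% higher without overlap, and nothing is read from these patterns.

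**Figure D5:**
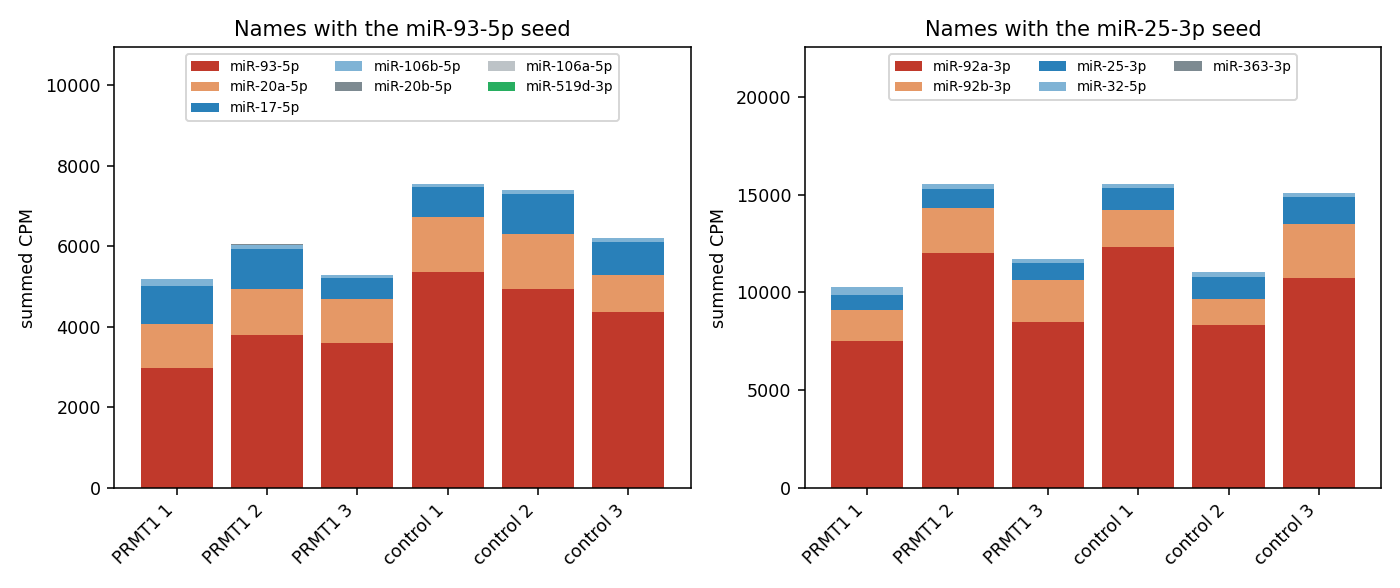
Stacked CPM of the names that share the seed of miR-93-5p (left) and of miR-25-3p (right), 1 bar per library with PRMT1 libraries left of control libraries. MiR-93-5p is the largest share of the left sums, which run from 5186 to 6047 CPM in PRMT1 and 6214 to 7545 CPM in control libraries, and miR-92a-3p that of the right sums.

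The miR-17-92 and miR-106a-363 clusters, paralogues of the cluster on other chromosomes, were listed by both arms of their hairpins, 22 names. Of these, 17 had counts and 13 were tested, and 0 passed the threshold in either direction. The log2 fold change was above 0 for 8 and below 0 for 5, with a median of 0.05, near the 0.04 over all tested names. Their 4 most abundant names included miR-92a-3p (log2 -0.16, SE 0.22) and miR-19b-3p (log2 -0.04, SE 0.26), beside miR-20a-5p and miR-17-5p above.

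The names could share reads where their sequences are close, since how reads with several matches were divided is not given in the sources used here. Compared from base 1 without gaps, miR-106b-5p differs from miR-17-5p, miR-20a-5p and miR-106a-5p in 3 of 21 bases and from miR-93-5p in 5. MiR-93-5p differs from miR-20b-5p in 3 of 23 bases and from miR-17-5p and miR-20a-5p in 4. MiR-25-3p differs from miR-92a-3p in 4 of 22 bases. Summed as 1 row, in which miR-93-5p is the most abundant name, the miR-17 family had a log2 fold change of -0.38 (SE 0.16, edgeR adjusted p = 0.755), and the names with the seed of miR-25-3p -0.19 (SE 0.21, edgeR adjusted p = 0.868).

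Names with a pattern over the 6 libraries most like a member were taken from the 156 other tested names of at least 100 CPM. For miR-93-5p these were miR-30e-3p (Pearson's r = 0.89), miR-941 (0.88) and miR-30a-3p (0.87). For miR-25-3p they were miR-941 (0.92), miR-99b-5p (0.90) and miR-361-5p (0.84). Lower in PRMT1 libraries without overlap were also miR-30e-3p (log2 -0.27), miR-941 (-0.46), miR-30a-3p (-0.33) and miR-361-5p (-0.57), while miR-99b-5p overlapped (-0.35). These names were picked for likeness, and 4.79% of all tested names were lower without overlap. MiR-93-5p and miR-25-3p had an r of 0.84 with each other, which 6 of the 156 names exceeded for miR-93-5p and 3 for miR-25-3p. For miR-106b-5p they were miR-374a-5p (0.96), miR-32-5p (0.95) and miR-186-5p (0.82). Its r was -0.67 with miR-93-5p and -0.45 with miR-25-3p, and 148 and 113 of the 156 names had a higher r with miR-106b-5p. These values describe 6 libraries that share their depth and scaling, and are no test. They include the group difference on which the members were selected, so the r values between members follow in part from that selection.

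MiR-374a-5p and miR-32-5p, like miR-106b-5p, were highest in PRMT1 library 1, at 308 and 404 CPM. In that library miR-106b-5p stood 0.92 above the mean of the other 5 libraries on the log2 scale. There, the 119 tested names with a GC content of 40% or less had a median of 0.13, and the 285 names of over 40% to 55%, where miR-106b-5p falls with 42.9%, a median of -0.00. Wider spreads between GC groups were seen in control library 2 (0.217 at 40% or less, -0.325 over 55%) and control library 3 (-0.122 and 0.239). Sequences were found for 594 of the 668 tested names, and the part of base composition in the result was not tested.

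A separate readout came from rows assigned to Rfam precursor families, which the rule for the members did not use. The mir-17 family of precursors, which covers several loci, stood at 61.9, 50.0 and 37.4 CPM of all counts in PRMT1 libraries, against 49.9, 54.2 and 43.6 in control libraries. The groups overlapped (exact permutation p = 0.9). The mir-25 precursor had 0, 0 and 2 counts in PRMT1 libraries, against 3, 0 and 1 in control libraries, which is at or under the limit of 3 counts that a count of 0 allows. A difference in precursor reads of MIR25 was therefore not detectable at this depth. No row of class hairpin carried a member's name.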

How the data were processed

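Tables of small RNA counts from 3 PRMT1 and 3 control libraries were used. The deposited counts were whole numbers per feature, not normalised, per the file headers. The authors' deposited TPM column was the CPM of the library total, to within 0.005, and served only as a check. BGI sequenced and filtered the reads, per the labels. Per the submitters' processing notes, HISAT, Bowtie2, RSEM and GRCh37.p13 were used, in roles not given in the sources used here. Per the labels, the library protocol was mRNA enrichment or rRNA removal, while the tables hold small RNA. Names absent from a table were taken as 0.

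Groups were compared over the 668 of 1727 known miRNA names that passed filterByExpr and held 99.98% of their counts, with TMM scaling and the robust quasi-likelihood test of edgeR 4.0.16 in R 4.3.3, adjusted by Benjamini-Hochberg at 0.05. All 6 members passed this filter. DESeq2 1.42.0 and limma 3.58.1 were alternatives. SEs are the log2 fold change over the square root of F. A count of 0 allows 3 counts, or 0.195 to 0.251 CPM, for counting error only. No libraries were copies of each other, with a chi-square per degree of freedom of at least 548 between any pair. The test was tried on simulated counts.

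The members and lists were chosen with earlier results of these data known. Named were all members, names of their seeds, the 4 most abundant names of the paralogous clusters, and the 3 names most like each abundant arm. The seed of bases 2 to 8, overlap under other scalings, base composition, precursor rows and DESeq2 on the filtered names were added once values were known.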

Additional observations from a re-analysis of the deposited data

How the results depend on the processing

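The count of 0 members past the threshold held under all alternatives run: other scalings, DESeq2, limma-voom, no filter, a filter of CPM 10 in 3 libraries, rows of all classes, omission of miR-21-5p, the replicate block and omission of each library. Over all names the count of 0 became 9 without a filter, 4 with DESeq2 on all 1727 names, 3 with DESeq2 on the 668 filtered names (added once values were known) and 1 with the replicate block, and 0 to 1 when each library was left out; the cause was not tested. Same-numbered libraries had correlations of their deviations of -0.05, 0.21 and -0.09, against -0.17 to 0.22 between differently numbered PRMT1 and control libraries. With 3 libraries per group this cannot decide whether the numbers pair them. The log2 fold change of miR-93-5p under the block was -0.50.

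The log2 fold change ran from -0.64 to -0.44 for miR-93-5p, from -0.62 to -0.46 for miR-25-3p as a single name and from 0.27 to 0.60 for miR-25-5p over the alternatives and omissions. That of miR-106b-5p kept its sign as a single name under the other settings and ran from -0.01, with PRMT1 library 1 left out, to 0.63 over omissions. The sum of its family, most of which is miR-93-5p, was at -0.38. That of miR-106b-3p reversed to -0.077 with rows of all classes and ran from -0.014 to 0.07 over omissions. MiR-93-3p reversed to -0.022 with upper quartile factors and -0.11 with rows of all classes, and ran from -0.25 to 0.21. Rows of all classes moved the median of known miRNAs to -0.09, from 0.04.

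Over omissions the difference in log2 ratio ran from -0.006 to 0.616 for miR-106b-5p over miR-106b-3p and from -0.165 to 0.083 for miR-93-5p over miR-25-3p, and the other 4 ratios kept their sign. The difference for mir-17 precursors was 0.51 CPM, -0.76 CPM per known miRNA counts and -5.56 to 6.69 CPM over omissions. Depth limits miR-25-5p and miR-93-3p most, with 114 to 205 and 234 to 426 counts.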
